A study of Homo sapiens with 18 samples.

Results

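The 9 genes described here are carriers that move amino acids across the plasma membrane. They were followed in Cal27 cells, an established line of oral squamous cell carcinoma (OSCC) derived from tongue. The genes were listed by symbol, with earlier results of these data known, and their 9 Ensembl IDs are 9 of the 60683 in the count table. All 9 passed the filter on low counts, which left 18159 genes to test. The genes are SLC7A5 (ENSG00000103257), SLC3A2 (ENSG00000168003), SLC1A4 (ENSG00000115902), SLC1A5 (ENSG00000105281), SLC7A1 (ENSG00000139514), SLC38A1 (ENSG00000111371), SLC38A2 (ENSG00000134294), SLC6A9 (ENSG00000196517) and SLC43A1 (ENSG00000149150).

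RNA was sequenced from 6 groups of 3 libraries, all of 1 cell line and all grown for 24 hours. Glucose-deprived medium was given with CGRP (calcitonin gene-related peptide, which sensory nerve endings release; recombinant human, 10 nM) or with control medium. 2-DG (2-deoxyglucose, which cells phosphorylate but cannot break down further) was added at 5 mM to high-glucose DMEM, again with CGRP or with control medium. High-glucose DMEM alone, with CGRP or with control medium, made up the last pair of groups. The series text reads the title code TG as CGRP and capTG as control medium, while the growth protocol names only "different CM", so the arms are given here as the series text reads them.

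Cells cannot make the essential amino acids, and carriers set how fast these and glutamine enter. SLC7A5 (LAT1) exchanges intracellular glutamine for leucine and other large neutral amino acids, and it reaches the cell surface only when joined to the heavy chain SLC3A2 (CD98hc). SLC1A5 (ASCT2) and SLC1A4 (ASCT1) exchange neutral amino acids with sodium, SLC38A1 and SLC38A2 (SNAT1 and SNAT2) take up glutamine and alanine with sodium, SLC7A1 (CAT1) carries arginine and lysine, SLC6A9 (GLYT1) takes up glycine, and SLC43A1 (LAT3) lets branched-chain amino acids and phenylalanine pass. Many of these genes are known targets of ATF4, a transcription factor made when amino acids or glucose run short, which pairs with C/EBP proteins on a composite DNA element.

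Promoters are shown for the 3 carriers whose start region holds the core of that element, since these 3 are read against the other 6 below. Each window covers 250 bases before to 50 bases after the gene's start in RefSeq (GRCh38.p14), and the table gives 1 start per gene. The core searched was TGATGNAA on either strand, which reads TTNCATCA in reverse, and the capitals mark the match. SLC3A2 lies at chr11:62881449-62881748 on the plus strand, SLC7A1 at chr13:29595639-29595938 on the minus strand and SLC38A1 at chr12:46266467-46266766 on the minus strand.
SLC3A2: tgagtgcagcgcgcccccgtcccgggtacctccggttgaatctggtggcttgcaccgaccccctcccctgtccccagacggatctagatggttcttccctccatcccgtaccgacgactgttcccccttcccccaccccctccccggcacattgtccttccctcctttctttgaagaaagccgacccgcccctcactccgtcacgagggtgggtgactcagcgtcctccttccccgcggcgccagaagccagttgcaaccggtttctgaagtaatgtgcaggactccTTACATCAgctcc
SLC7A1: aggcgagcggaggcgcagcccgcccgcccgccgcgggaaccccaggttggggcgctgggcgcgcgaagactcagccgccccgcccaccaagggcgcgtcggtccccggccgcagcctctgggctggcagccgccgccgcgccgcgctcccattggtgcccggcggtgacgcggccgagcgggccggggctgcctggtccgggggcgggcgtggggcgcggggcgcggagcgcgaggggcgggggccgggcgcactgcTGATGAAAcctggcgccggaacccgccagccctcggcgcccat
SLC38A1: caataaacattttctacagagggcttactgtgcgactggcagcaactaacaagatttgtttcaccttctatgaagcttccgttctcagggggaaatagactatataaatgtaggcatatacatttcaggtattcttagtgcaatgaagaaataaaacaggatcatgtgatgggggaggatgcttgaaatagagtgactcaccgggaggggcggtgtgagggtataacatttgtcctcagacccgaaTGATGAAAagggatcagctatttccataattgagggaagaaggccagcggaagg
With the start base counted as 0, the match begins at 37 in SLC3A2 (on the reverse strand), at 7 in SLC7A1 and at -4 in SLC38A1. A match was thus found in 3 of the 9 carriers (33.3%), in 1 of 22 other plasma membrane carriers with a promoter in the table (4.55%), in 0 of 7 lysosomal carriers, and in 1270 of all 35116 promoters (3.62%). A match is a string of letters in the window, and a window without one says nothing of the factor.

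Library totals ran from 28.04M to 32.66M counts. The epithelial markers fixed for the cells (KRT5, KRT14, KRT6A, KRT17, TP63, EPCAM, CDH1, DSG3) were all detected and summed to 3404 to 4627 CPM (counts scaled to library size). Replicate libraries are called independent repetitions in the series text. Deprived CGRP 2 and 2-DG control 2 stood apart on the second principal component (7.39% of variance), at 59.3 and 34.6, where their group mates lay between -14.8 and -9.78. In these libraries long genes were low and short genes high relative to their mates. In deprived CGRP 2 log2 CPM was higher than in its mates by a median of 0.40 in the shortest of 4 equal classes of genes by exon length (median 0.979 kb), and differed by a median of -0.36 in the longest (median 6.92 kb). The carriers followed much the same order: SLC3A2, with 2.65 kb of exon, was 0.35 higher in this library, while SLC7A1 (7.35 kb) differed by -0.75 and SLC38A1 (9.33 kb) by -0.67. In 2-DG control 2, SLC3A2 was 0.16 higher, SLC7A1 differed by -0.38 and SLC38A1 by -0.53. Results of the tests of the 9 carriers are therefore given with and without both libraries.

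**Figure D1:**
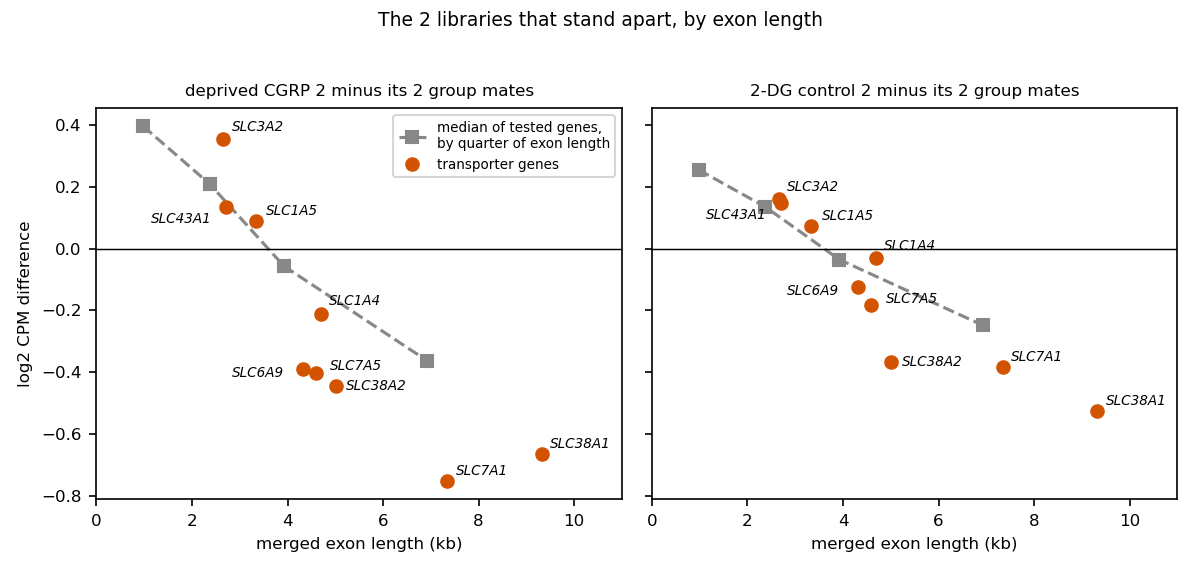
Log2 CPM of deprived CGRP 2 (left) and 2-DG control 2 (right) minus their 2 group mates, against merged exon length in kb. Orange points are the 9 carriers and grey squares are the medians of all tested genes in 4 equal classes of exon length. SLC38A1 and SLC7A1, the longest of the 9, lay lowest in both panels and SLC3A2 lay highest.

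Per kb of exon, the scale on which levels of different genes can be set side by side, the heavy chain and its partner were the most abundant of the 9. SLC7A5 stood at 523 ± 8.95 CPM per kb in high-glucose control cells (SD, n = 3, as for all means below) and SLC3A2 at 315 ± 1.76 CPM per kb. SLC38A2 (125 ± 1.498), SLC1A5 (80.2 ± 1.10), SLC7A1 (30.5 ± 0.968) and SLC38A1 (27.0 ± 0.509 CPM per kb) followed. SLC6A9 (4.19 ± 0.251) and SLC1A4 (3.97 ± 0.390) were low, and SLC43A1 was the scarcest at 0.516 ± 0.0433 CPM per kb, from only 40 to 45 reads a library. Exons on the opposite strand overlap 23.4% of SLC1A5, 7.67% of SLC6A9 and 2.53% of SLC7A5. The overlapping gene reached 11.9 to 26.9 CPM at SLC6A9 (CCDC24), against a lowest SLC6A9 value of 14.3 CPM, but at most 6.51 CPM at SLC1A5. The strand setting of the counting is not given in the sources used here, so reads of SLC6A9 and CCDC24 may not be told apart where they overlap.

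**Figure D2:**
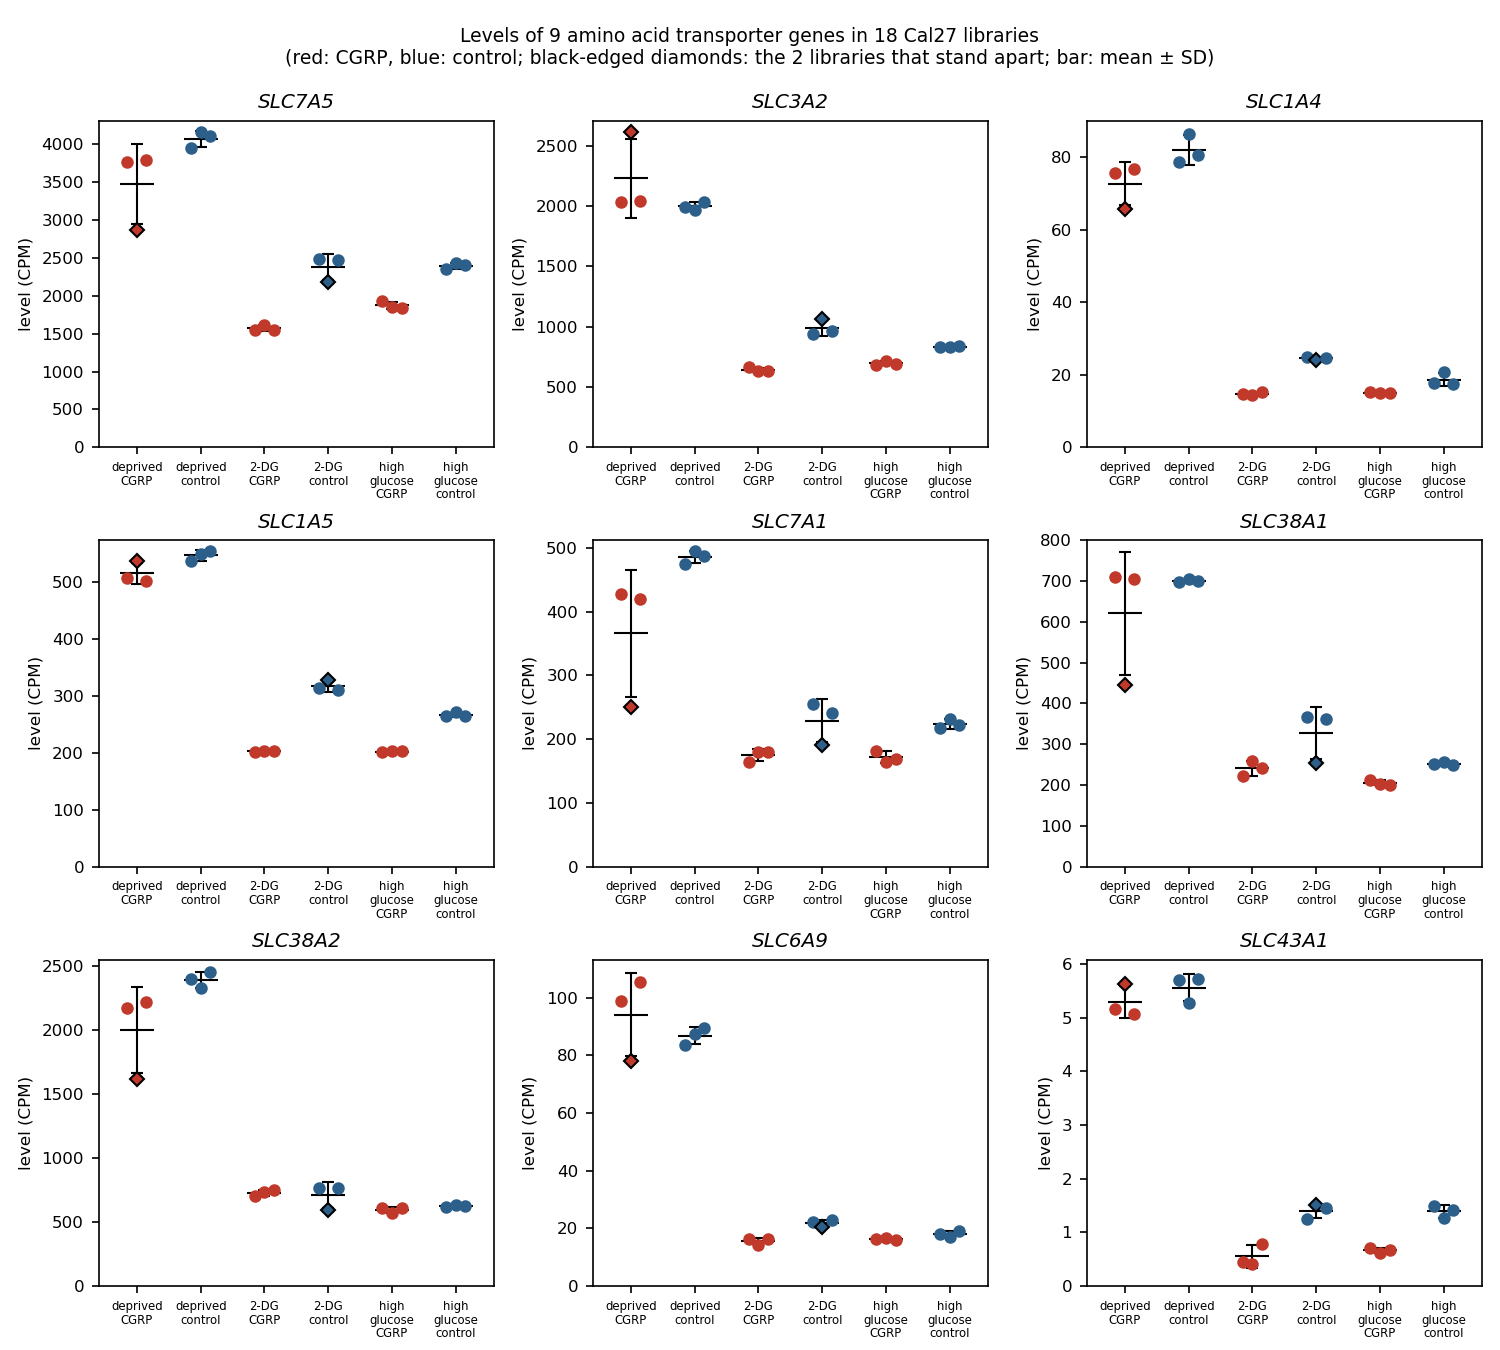
CPM of each carrier in each of the 18 libraries (points, linear axes from 0) with the group mean ± SD (bars, n = 3), by medium and by CGRP (red) or control (blue). Diamonds are the 2 libraries that stand apart. Both deprived groups had the highest means for all 9 genes, and in SLC7A1 the low deprived CGRP library reached into the range of the 2-DG control libraries.

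Glucose deprivation without CGRP raised all 9 carriers. In the test used throughout (edgeR's quasi-likelihood F test with Benjamini-Hochberg adjustment over all genes, threshold 0.05), 31.0% of all genes tested rose in this comparison, 29.6% fell and 60.6% changed in either direction. The median log2 fold change of the 9 was 1.47, against 0.02 over all tested genes. In each of the 9 genes the 3 deprived control libraries lay above the 3 high-glucose control libraries with no overlap. The share of all tested genes separated in this way was not counted.

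Of the leucine exchanger, SLC7A5 had 3959.9, 4162 and 4114 CPM in deprived control libraries, against 2353, 2432 and 2409 CPM in high-glucose control libraries. This was the smallest rise of the 9, with a log2 fold change of 0.77 ± 0.09 (SE; adjusted p = 1.2e-06). Its heavy chain SLC3A2 had 1992, 1972 and 2038 CPM, against 834, 831 and 840.3 CPM, a 2.40-fold rise (1.26 ± 0.08, adjusted p = 1.1e-09). The log2 rise of the heavy chain was the larger, a difference that was not tested, and the ratio of SLC3A2 to SLC7A5 per kb was 0.848 ± 0.026 in deprived control cells and 0.602 ± 0.011 in high-glucose control cells.

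Among the neutral exchangers SLC1A4 had 78.7, 86.4 and 80.4 CPM in deprived control libraries, against 17.8, 20.7 and 17.3 CPM in high-glucose control libraries, a 4.40-fold rise (2.14 ± 0.07, adjusted p = 4.2e-13). SLC1A5, the more abundant of the pair, had 537, 549 and 556 CPM, against 265, 271 and 265 CPM (1.03 ± 0.04, adjusted p = 5.2e-12). The estimate was larger for the scarcer exchanger, and the difference between the genes was not tested.

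The glutamine carriers rose too. SLC38A2 had 2399, 2330.3 and 2456 CPM in deprived control libraries, against 618, 633 and 623 CPM in high-glucose control libraries (1.94 ± 0.11, adjusted p = 2.3e-10). SLC38A1 had 697, 703 and 699 CPM, against 251, 257 and 248 CPM (1.47 ± 0.15, adjusted p = 3.4e-07). The cationic carrier SLC7A1 rose 2.17-fold to 486 ± 10.0 CPM in deprived control cells, against 224 ± 7.11 CPM in high-glucose control cells (1.12 ± 0.15, adjusted p = 7.0e-06).

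The glycine carrier SLC6A9 showed the largest rise, 4.80-fold, with 83.6, 87.5 and 89.3 CPM in deprived control libraries against 18.2, 17.0 and 19.1 CPM in high-glucose control libraries (2.26 ± 0.09, adjusted p = 4.7e-12). SLC43A1 had 173, 153 and 168 reads in deprived control libraries and 45, 40 and 42 reads in high-glucose control libraries, and rose 3.98-fold in CPM (1.99 ± 0.14, adjusted p = 2.1e-09). The 3 carriers with a motif match rose by 1.12 to 1.47, and the other 6 by 0.77 to 2.26, so the ranges overlapped. All 9 rises held under every one of the 27 alternatives run, including scaling by total counts, which put the median of all genes at -0.13 in log2. The summed endothelial list, 2 of whose 4 genes passed the filter on low counts, was 1.79 to 2.63 CPM in deprived control cells and 24.3 to 25.2 CPM in high-glucose control cells, most of it CDH5, and KDR was at 0 in 16 of the 18 libraries. The summed fibroblast list (3 of 5 genes passed the filter) was 10.5 to 11.5 CPM in deprived control cells and 24.4 to 25.7 CPM in high-glucose control cells, with COL3A1 and DCN at 0 in 12 libraries each. The leukocyte list (2 of 5) was 0.0345 to 0.0988 CPM in deprived control cells and 2.19 to 2.40 CPM in high-glucose control cells, and the neuronal list (3 of 5) was 2.14 to 2.79 CPM in deprived control cells and 8.70 to 9.45 CPM in high-glucose control cells. Over all 18 libraries CD14 (1025 reads) led the leukocyte list, with PTPRC next (61 reads). NEFM (4480 reads) and NEFL (1269 reads) led the neuronal list, with TUBB3 next (327 reads). Epithelial markers summed to 3667 to 3772 CPM in deprived control cells and 4405 to 4507 CPM in high-glucose control cells. The Schwann list (1 of 3 genes passed the filter) was 0.988 to 1.10 CPM in deprived control cells and 1.75 to 2.16 CPM in high-glucose control cells. The part of these markers in the result was not tested. All libraries come from 1 cell line. In its bulk RNA, fewer cells expressing a listed gene and less of that RNA per cell cannot be told apart.

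Carriers outside the 9 did not share one direction, though the 9 and the lists here were chosen with earlier results of these data known. Of 31 other plasma membrane carriers listed, 17 had enough counts to test. With deprivation 6 of these rose and 7 fell, with a median of -0.51, where 31.0% of all genes rose and 29.6% fell. By smallest p these were SLC1A3, a glutamate carrier of glia (-2.03 ± 0.09), SLC38A5, a glutamine carrier (2.61 ± 0.12), SLC38A4, a carrier of neutral and cationic amino acids (1.95 ± 0.14), and SLC6A15, a carrier of branched-chain amino acids and proline (1.05 ± 0.08). SLC7A11, a cystine and glutamate exchanger, was at 379 ± 8.64 CPM in deprived control cells, against 70.7 ± 1.19 CPM in high-glucose control cells. Some carriers with a lower mean in deprived than in high-glucose control cells were scarce: SLC1A1 (0.113 against 0.912 CPM), SLC6A7 (0.336 against 2.16 CPM) and SLC7A2 (1.12 against 2.97 CPM). All 6 lysosomal carriers tested of 7 listed rose, with a median of 1.05, among them CTNS, which exports cystine (1.22 ± 0.07), SLC38A9, the arginine sensor of mTORC1 (1.06 ± 0.07), SLC66A1, which exports cationic amino acids (1.03 ± 0.08), and SLC38A7, which exports glutamine (1.07 ± 0.08). Of 9 factors of the amino acid response 7 rose and 0 fell, led by ATF3 (2.78 ± 0.06), TRIB3 (3.72 ± 0.09), CEBPG, a C/EBP partner of ATF4 (1.66 ± 0.06), and DDIT3 (4.63 ± 0.23). ATF4 itself rose by 0.92 ± 0.10 (adjusted p = 4.2e-07).

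**Figure D3:**
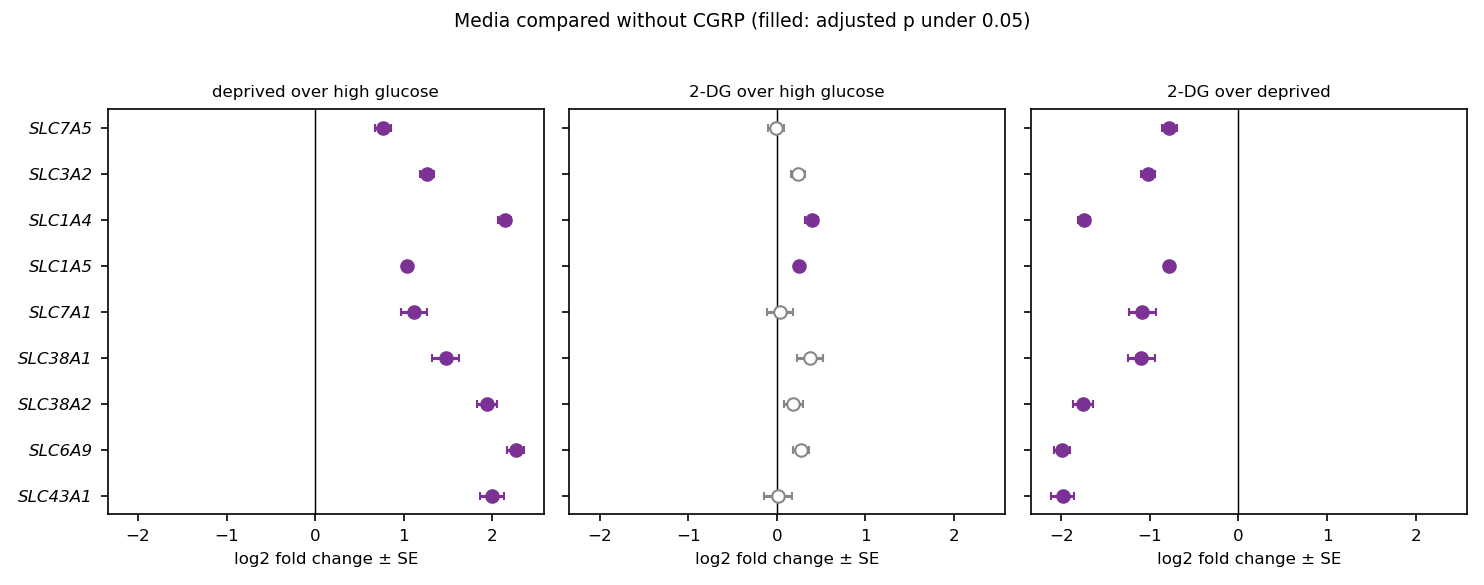
Log2 fold change ± SE of each carrier in 3 comparisons of control cells, on 1 scale, where filled points passed an adjusted p of 0.05. All 9 points lay above 0 for deprivation over high glucose and below 0 for 2-DG over deprivation, and 2 of 9 passed for 2-DG over high glucose.

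How many carriers rose with 2-DG in high-glucose medium depended on whether both libraries that stand apart were kept, as given below. With all 18 libraries SLC1A4 and SLC1A5 rose, 2 of the 9, where 7.99% of all genes rose, 5.85% fell and 13.8% changed. The other 7 did not pass. SLC1A4 had 24.8, 24.1 and 24.6 CPM in 2-DG control libraries, against 17.8, 20.7 and 17.3 CPM in high-glucose control libraries (0.40 ± 0.07, adjusted p = 0.0014). SLC1A5 had 313, 328 and 310.2 CPM, against 265, 271 and 265 CPM (0.25 ± 0.04, adjusted p = 0.0010). In both genes the groups did not overlap, and neither did they in SLC3A2 and SLC6A9, which did not pass. How many of all tested genes were separated in this way was not counted.

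SLC7A5 was at 2380.1 ± 172 CPM in 2-DG control cells and 2398 ± 41.1 CPM in high-glucose control cells (-0.01 ± 0.09, adjusted p = 0.96), with overlapping libraries. SLC3A2 was at 987 ± 65.4 CPM, against 835 ± 4.66 CPM (0.24 ± 0.08, adjusted p = 0.056). SLC43A1 had 41, 44 and 44 reads in 2-DG control libraries and 45, 40 and 42 reads in high-glucose control libraries. SLC38A1 (0.38 ± 0.15), SLC38A2 (0.19 ± 0.11), SLC6A9 (0.28 ± 0.09) and SLC7A1 (0.03 ± 0.15) had adjusted p from 0.064 to 0.92. SLC38A1 is long and was at 368, 253 and 361 CPM in the 2-DG control libraries, where the low value is from the library that stands apart. Without both libraries that stand apart 7 of the 9 rose, where 32.5% of all genes changed: SLC3A2 (0.18), SLC7A1 (0.14), SLC38A1 (0.53), SLC38A2 (0.29) and SLC6A9 (0.31) joined the 2 above. With all 18 libraries, where 7.99% of all genes rose and 5.85% fell, 2 of the 17 other plasma membrane carriers tested rose and 2 fell. These were SLC38A5 (1.18 ± 0.12) and SLC7A6 (0.41 ± 0.13) against SLC7A8 (-0.50 ± 0.10) and SLC43A2 (-0.21 ± 0.07). Of the 6 lysosomal carriers 3 rose (SLC38A9 0.37 ± 0.07, CTNS 0.33 ± 0.07, SLC38A7 0.34 ± 0.08), and of the 9 response factors MYC (0.65 ± 0.05), TRIB3 (0.65 ± 0.08) and ATF5 (0.40 ± 0.09) rose while ATF3 fell (-0.36 ± 0.06).

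Set against each other, 2-DG control cells were below deprived control cells in all 9 carriers, where 28.6% of all genes were lower, 28.9% higher and 57.5% differed. The differences ran from -0.78 in SLC7A5 (adjusted p = 1.1e-06) to -1.99 in SLC6A9 (adjusted p = 2.4e-11), with a median of -1.10. All 9 held under the 27 alternatives. Of the other plasma membrane carriers 7 were higher and 6 lower, by smallest p SLC1A3 (2.03 ± 0.09), SLC38A5 (-1.43 ± 0.10), SLC38A4 (-1.65 ± 0.13) and SLC1A1, a neuronal glutamate carrier (3.59 ± 0.33). SLC1A1 had only 10 reads in all over the deprived control libraries, against 129 over the 2-DG control libraries. Of the lysosomal carriers 5 of 6 were lower, and of the response factors 7 were lower and MYC higher (0.22 ± 0.05). These comparisons and the 2 above share their control libraries.

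CGRP in high-glucose medium lowered 4 of the 9 carriers and raised none, where 2.29% of all genes fell, 2.04% rose and 4.33% changed in either direction. The median of the 9 was -0.31, against -0.01 over all tested genes. In all 9 genes, of which 5 did not pass, the CGRP mean was below the control mean and the libraries of the groups did not overlap. The share of all tested genes separated in this way was not counted, so it is not known how common this was.

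SLC43A1 fell most, with 23, 20 and 21 reads in high-glucose CGRP libraries against 45, 40 and 42 reads in high-glucose control libraries (-1.06 ± 0.18, 0.480-fold in CPM, adjusted p = 0.0020). SLC1A5 had 201, 203 and 203 CPM, against 265, 271 and 265 CPM (-0.40 ± 0.04, adjusted p = 3.6e-05). SLC7A5 had 1927, 1858 and 1841 CPM, against 2353, 2432 and 2409 CPM (-0.35 ± 0.09, adjusted p = 0.028). The difference in SLC7A5 is large beside the spread of these 6 libraries, yet its call was lost without any 1 of them (adjusted p up to 0.12) and with scaling by total counts (adjusted p = 0.074).

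SLC1A4 had 15.3, 14.9 and 14.99 CPM in high-glucose CGRP libraries, against 17.8, 20.7 and 17.3 CPM in high-glucose control libraries (-0.31 ± 0.07, adjusted p = 0.024). Its call was lost without high-glucose control 2, the highest of the 6, or any 1 of the CGRP libraries (adjusted p up to 0.15), with scaling by total counts (adjusted p = 0.063) and with no filter on low counts (adjusted p = 0.070). SLC3A2, at 696 ± 17.4 CPM with CGRP and 835 ± 4.66 CPM in control medium, did not pass (-0.26 ± 0.08, adjusted p = 0.084), nor did SLC7A1 (-0.38 ± 0.15), SLC38A1 (-0.29 ± 0.15), SLC38A2 (-0.07 ± 0.11) or SLC6A9 (-0.15 ± 0.09), with adjusted p from 0.20 to 0.87. Without both libraries that stand apart, neither of which is in this comparison, 7 of the 9 fell, SLC3A2, SLC7A1 and SLC38A1 among them, where 19.1% of all genes changed.

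CGRP in 2-DG medium lowered 6 of the 9 carriers and raised none, where 6.89% of all genes fell, 5.31% rose and 12.2% changed. The median was -0.60, against -0.01 over all tested genes. SLC1A5 had 202, 203 and 204 CPM in 2-DG CGRP libraries, against 313, 328 and 310.2 CPM in 2-DG control libraries (-0.64 ± 0.04, adjusted p = 1.3e-07). SLC1A4 had 14.7, 14.4 and 15.3 CPM, against 24.8, 24.1 and 24.6 CPM (-0.73 ± 0.07, adjusted p = 8.2e-06). In both exchangers the CGRP libraries lay below the control libraries with no overlap, and the CGRP libraries of 2-DG medium overlapped those of high-glucose medium. The CGRP libraries also lay below the control libraries with no overlap in SLC7A5, SLC3A2, SLC6A9, SLC43A1 and SLC7A1, of which SLC7A1 did not pass. How common such separation was among all tested genes was not counted.

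Both chains of the leucine exchanger fell. SLC7A5 had 1548, 1614 and 1555 CPM in 2-DG CGRP libraries, against 2490.2, 2182 and 2468 CPM in 2-DG control libraries (-0.60 ± 0.09, adjusted p = 2.5e-04). SLC3A2 had 663, 629 and 630.3 CPM, against 939, 1062 and 961 CPM (-0.62 ± 0.08, adjusted p = 8.4e-05). The ratio of SLC3A2 to SLC7A5 per kb was 0.741, 0.674 and 0.701 in 2-DG CGRP libraries, against 0.652, 0.841 and 0.673 in 2-DG control libraries, where 0.841 is from the library that stands apart. The CGRP mean of 0.705 was thus below the control mean of 0.722 with that library and above the mean of 0.662 without it.

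SLC6A9 fell to 15.6 ± 1.15 CPM in 2-DG CGRP cells, against 21.9 ± 1.13 CPM in 2-DG control cells (-0.49 ± 0.09, adjusted p = 0.0026). SLC43A1 had 13, 13 and 24 reads with CGRP and 41, 44 and 44 reads in control medium (-1.33 ± 0.19, adjusted p = 1.6e-04). SLC38A1 was at 223, 259 and 242 CPM with CGRP and 368, 253 and 361 CPM in control medium, and did not pass (-0.44 ± 0.15, adjusted p = 0.067). SLC7A1 (-0.39 ± 0.15, adjusted p = 0.10) and SLC38A2 (0.04 ± 0.11, adjusted p = 0.88) did not pass either. Without both libraries that stand apart SLC7A1 (-0.51) and SLC38A1 (-0.59) fell as well, which makes 8 of 9, where 28.4% of all genes changed. Across the alternatives the count ran from 6 to 8.

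CGRP in glucose-deprived medium changed 0 of the 9 carriers in edgeR's quasi-likelihood test, where 13.0% of all genes changed (6.38% rose and 6.58% fell). DESeq2 also called 0, where it called 14.2% of all genes. In edgeR 4 of the 9 had an unadjusted p under 0.05 (SLC7A5, SLC1A4, SLC7A1 and SLC38A2, each lower with CGRP). Of these SLC38A2 had the highest p, 0.028, which ranked 3999 of the 18159 genes tested. SLC7A5 had 3771, 2864 and 3795 CPM in deprived CGRP libraries, against 3959.9, 4162 and 4114 CPM in deprived control libraries (-0.23 ± 0.09, adjusted p = 0.096). SLC3A2 had 2038, 2612 and 2047 CPM, against 1992, 1972 and 2038 CPM (0.16 ± 0.08, adjusted p = 0.21). In both genes the second value is from the library that stands apart, low in SLC7A5 and high in SLC3A2.

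SLC1A5 had 508, 537 and 502 CPM in deprived CGRP libraries, against 537, 549 and 556 CPM in deprived control libraries (-0.09 ± 0.04, adjusted p = 0.21). SLC43A1 had 146, 146 and 156 reads, against 173, 153 and 168 reads (-0.07 ± 0.12, adjusted p = 0.72). SLC6A9 was at 98.9, 78.0 and 105 CPM, against 83.6, 87.5 and 89.3 CPM (0.12 ± 0.09, adjusted p = 0.41). SLC1A4 (-0.17 ± 0.07), SLC7A1 (-0.41 ± 0.15), SLC38A1 (-0.17 ± 0.15) and SLC38A2 (-0.26 ± 0.11) had adjusted p from 0.083 to 0.48. Without both libraries that stand apart SLC6A9 rose (0.24, adjusted p = 3.2e-05) and SLC7A5 (-0.10), SLC1A5 (-0.11), SLC7A1 (-0.19) and SLC38A2 (-0.12) fell, which makes 5 of 9, where 28.7% of all genes changed.

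**Figure D4:**
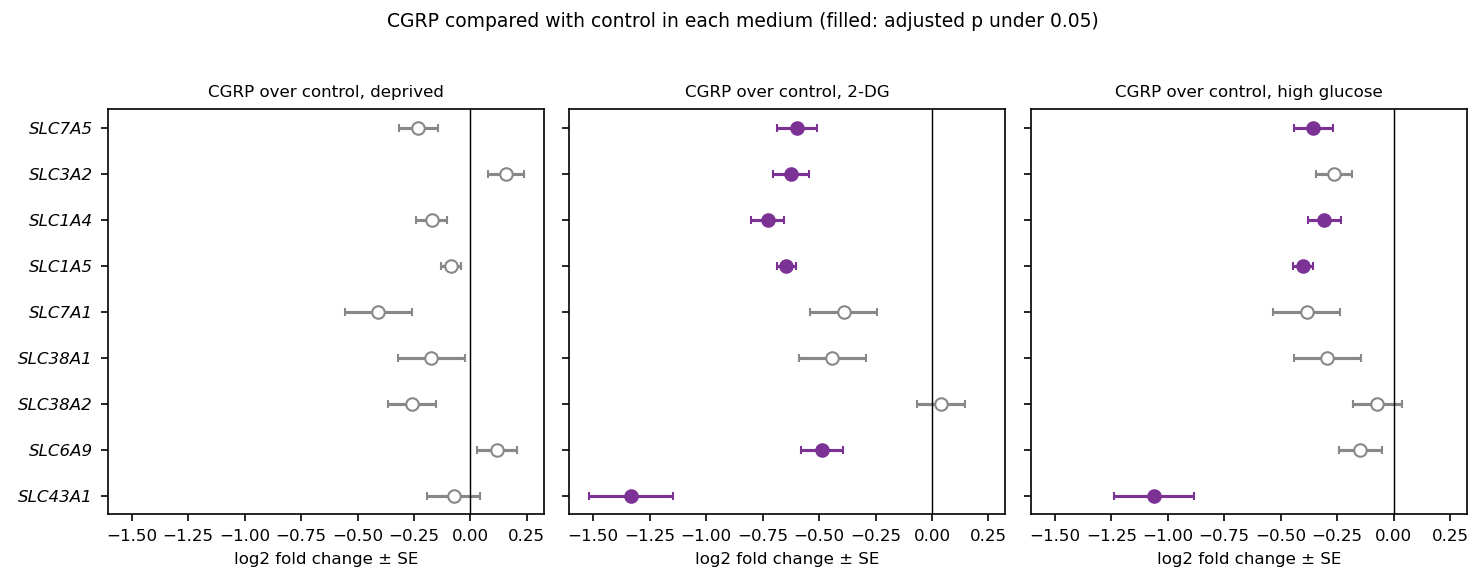
Log2 fold change ± SE of each carrier for CGRP over control in glucose-deprived, 2-DG and high-glucose medium, on 1 scale, where filled points passed an adjusted p of 0.05. Of the 9 carriers 0 passed in deprived, 6 in 2-DG and 4 in high-glucose medium, all of them below 0.

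The difference between the effects of CGRP was tested directly. Deprived minus high-glucose medium, the effect differed in 2 of 9 carriers, where 0.903% of all genes had a higher and 1.55% a different effect. These were SLC43A1, at -0.07 ± 0.12 in deprived and -1.06 ± 0.18 in high-glucose medium (difference 0.99 ± 0.21, adjusted p = 0.027), and SLC1A5, at -0.09 ± 0.04 and -0.40 ± 0.04 (difference 0.32 ± 0.06, adjusted p = 0.013). The call of SLC1A5 was lost without high-glucose control 2 or deprived control 1 (adjusted p up to 0.056), in the fit of only the groups compared (adjusted p = 0.055) and with no filter on low counts (adjusted p = 0.20). That of SLC43A1 was lost without any 1 of high-glucose CGRP 1 to 3, high-glucose control 1 or 3 or deprived control 1 to 3 (adjusted p up to 0.094) and with no filter on low counts (adjusted p = 0.071). SLC3A2 had a difference of 0.42 ± 0.11 (adjusted p = 0.083), and without both libraries that stand apart 7 of 9 differed, all higher in deprived medium, where 13.5% of all genes differed.

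2-DG minus high-glucose medium, the effect of CGRP differed in 0 of 9 carriers in edgeR's test, where 0.391% of all genes differed (0.270% with a lower and 0.121% with a higher effect). DESeq2 called 2 (SLC1A4 and SLC1A5), where it called 1.26% of all genes. In edgeR 4 had an unadjusted p under 0.05 (SLC3A2, SLC1A4, SLC1A5 and SLC6A9). The highest of these, 0.022 in SLC6A9, ranked 895 by p of the 18159 genes tested. The differences nearest to the threshold were SLC1A4 (-0.42 ± 0.10, adjusted p = 0.11), SLC1A5 (-0.24 ± 0.06, adjusted p = 0.13) and SLC3A2 (-0.36 ± 0.11, adjusted p = 0.25), each a larger fall in 2-DG medium. Without both libraries that stand apart 6 of 9 differed, all with a larger fall in 2-DG medium, where 5.91% of all genes differed.

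Among the 17 other plasma membrane carriers tested, 3 were called with CGRP in each medium. In deprived medium 1 rose and 2 fell, a share near the 13.0% of all genes called there. In 2-DG medium 3 fell, where 12.2% of all genes were called and 6.89% fell, and in high-glucose medium 3 fell, where 4.33% were called and 2.29% fell. SLC6A15 fell in all 3 media, with log2 fold changes of -0.54 ± 0.08 in deprived, -0.68 ± 0.08 in 2-DG and -0.69 ± 0.08 in high-glucose medium. SLC7A11, the cystine and glutamate exchanger that also pairs with SLC3A2, fell in 2-DG (-1.13 ± 0.19) and in high-glucose medium (-1.02 ± 0.19). SLC38A5 fell in 2-DG medium (-0.87 ± 0.12), SLC6A7, a proline carrier, in high-glucose medium (-0.85 ± 0.17) and SLC43A2, a relative of SLC43A1, in deprived medium (-0.68 ± 0.07), where SLC7A9 rose (1.97 ± 0.48). The rise of SLC7A9 rests on few reads, 42 in all over the deprived CGRP libraries and 11 over the deprived control libraries. Of the lysosomal carriers, CTNS was the only one called with CGRP in any medium, and fell in 2-DG medium (-0.30 ± 0.07). The effect of CGRP differed between deprived and high-glucose medium in SLC43A2 (-0.73 ± 0.09) and SLC6A7 (1.49 ± 0.32). SLC6A7 had only 45 reads in all over the deprived CGRP libraries and 30 over the deprived control libraries.

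Of the 9 factors of the amino acid response, with CGRP 3 fell in deprived medium, where 6.58% of all genes fell, 5 fell in 2-DG medium, where 6.89% did, and 5 fell in high-glucose medium, where 2.29% did. None of the 9 was called higher in any medium. By smallest p these were ATF3 (-0.57 ± 0.05), MYC (-0.54 ± 0.05) and EIF2AK4, the kinase GCN2 (-0.33 ± 0.09), in deprived medium. In 2-DG medium they were MYC (-1.05 ± 0.05), TRIB3 (-1.05 ± 0.08), CEBPG (-0.56 ± 0.06) and ATF4 (-0.44 ± 0.10), and in high-glucose medium MYC (-0.90 ± 0.05), CEBPG (-0.48 ± 0.06), ATF3 (-0.42 ± 0.06) and TRIB3 (-0.60 ± 0.08). The effect was less negative in deprived than in high-glucose medium for CEBPG (0.42 ± 0.08), TRIB3 (0.58 ± 0.11) and MYC (0.36 ± 0.07). Beside these falls the summed endothelial list was 39.5 to 43.7 CPM in 2-DG CGRP cells against 21.3 to 25.1 CPM in 2-DG control cells, and 42.3 to 43.9 CPM in high-glucose CGRP cells against 24.3 to 25.2 CPM in high-glucose control cells. The summed neuronal list, most of its reads from NEFM and NEFL, was 18.6 to 22.5 CPM in 2-DG CGRP cells against 10.6 to 12.2 CPM in 2-DG control cells, and 16.7 to 19.1 CPM in high-glucose CGRP cells against 8.70 to 9.45 CPM in high-glucose control cells, with SYN1 at 0 in 17 libraries and RBFOX3 in 14. The summed leukocyte list, most of its reads from CD14, was 3.20 to 4.34 CPM in 2-DG CGRP cells against 1.85 to 2.11 CPM in 2-DG control cells, and 3.03 to 4.71 CPM in high-glucose CGRP cells against 2.19 to 2.40 CPM in high-glucose control cells, with PTPRC and CD3E at 0 in 12 libraries each. The summed fibroblast list was 23.0 to 24.2 CPM in 2-DG CGRP cells against 17.1 to 18.7 CPM in 2-DG control cells, and 24.7 to 27.3 CPM in high-glucose CGRP cells against 24.4 to 25.7 CPM in high-glucose control cells. In deprived CGRP cells the endothelial list summed to 3.12 to 3.87 CPM, the neuronal list to 3.85 to 4.68 CPM, the leukocyte list to 0.195 to 0.501 CPM and the fibroblast list to 10.9 to 16.2 CPM, and among these 4 lists only the fibroblast sums overlapped those of deprived control cells given above. The Schwann sums (1.07 to 1.48 CPM) overlapped them too. Epithelial sums were 3404 to 3452 CPM in deprived CGRP cells, below deprived control cells, with 2 of the 8 genes called lower. They were 4280 to 4423 CPM in 2-DG CGRP cells (4140 to 4627 CPM in control) and 4521 to 4545 CPM in high-glucose CGRP cells (4405 to 4507 CPM in control). The part of these markers in the results was not tested.

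Across the 18 libraries, which share media within groups, the levels of the 9 carriers were positively correlated in all 36 pairs, given here as a description. The closest pair was SLC1A4 and SLC6A9 (Pearson r of log2 CPM 0.988), the exchanger chains SLC7A5 and SLC3A2 had 0.912, and SLC3A2 and SLC7A1 were the least alike at 0.869. Within groups, with each group's mean taken out, 17 of the 36 pairs had a negative r over the 18 libraries and 15 of 36 over the 16 without both that stand apart. SLC3A2 and SLC7A1 had -0.987 within groups (-0.826 without both libraries), SLC7A5 and SLC3A2 had -0.959 (-0.414), and SLC1A4 and SLC6A9 had 0.388 (-0.242). Likeness to other genes was computed only over all 18 libraries, and the part of both that stand apart in it was not tested. Of 12492 genes with a mean log2 CPM of at least 1, those most like each carrier were SCAP (0.983), SH3D19 (0.975) and MLYCD (0.974) for SLC7A5, PSPH for SLC3A2 (0.996), THBD for SLC1A4 (0.996), MTHFD2 for SLC1A5 (0.995), FAM83G for SLC7A1 (0.993), NOL8 for SLC38A1 (0.994), ATP2B1 for SLC38A2 (0.996), GCLC for SLC6A9 (0.996) and CARS1 for SLC43A1 (0.987).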

How the data were processed

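RNA of 18 Cal27 cultures, extracted with Trizol per the labels' protocols, was sequenced. The deposited table holds raw counts per Ensembl gene and library, per the file headers, and the authors aligned reads with HISAT2 2.0.4, per the submitters' processing notes. These name hg19 and GRCh38 without a role, so no coordinates are taken from the counts, and those of promoters are RefSeq's on GRCh38.p14. Neither the counting program nor its strand setting is given in the sources used here.

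A name table held 60370 of the IDs. After filterByExpr (10 counts, 15 in total) and TMM scaling, the robust quasi-likelihood F test of edgeR 4.0.16, run in R 4.3.3, was fitted to the 6 groups at once (12 residual degrees of freedom). SE is the size of the log2 fold change divided by the root of F. Benjamini-Hochberg adjustment covered all genes of a comparison. Depth covers counting error only.

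The 9 carriers, the gene and marker lists and the naming rules were chosen with earlier results of these data known. Every carrier is accounted for, and of other lists the 4 called genes with the smallest p are named (ATF4 in deprived cells was named after its value was seen). Exon lengths are merged GENCODE 29 exons, found for 98.6% of tested genes.

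Alternatives in edgeR were RLE size factors, total-count scaling, no filter, a stricter filter (above 1 CPM in at least 3 libraries, with a mean above 2 CPM), a replicate block, only the groups compared, and leaving out each library or both that stand apart. The Wald test of DESeq2 1.42.0 was another. An offset for exon length (lowess, span 0.3) was added after the data were seen. No replicate pair agreed within sampling noise: chi-square per degree of freedom was at least 1.41.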

Additional observations from a re-analysis of the deposited data

Results flagged for a closer look

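The effect of CGRP on SLC1A5 differed between glucose-deprived and high-glucose medium by 0.32 ± 0.06 in log2 (interaction in edgeR's quasi-likelihood test, adjusted p = 0.013), since it was -0.09 in deprived and -0.40 in high-glucose medium. That on SLC43A1 differed by 0.99 ± 0.21 (adjusted p = 0.027), from 146 to 156 reads a library in deprived CGRP cells, 153 to 173 in deprived control cells, 20 to 23 in high-glucose CGRP cells and 40 to 45 in high-glucose control cells. The call of SLC1A5 was lost in 4 of the 27 alternatives (adjusted p up to 0.20) and that of SLC43A1 in 9 (adjusted p up to 0.094).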

How the results depend on the processing

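All 9 rises with deprivation and all 9 lower values of 2-DG against deprived cells held under the 27 alternatives. Of the values of single carriers under the alternatives, 1807 kept their direction and side of the threshold, 26 no longer passed, 72 newly passed and 38 changed sign, and DESeq2 gave no adjusted p for SLC43A1 in 2-DG minus high-glucose medium. Depth limits SLC43A1 most, with 13 to 45 reads a library outside deprived medium. The counts of carriers called are given here with the share of all genes called in brackets, which moved too. For CGRP in high-glucose medium the count was 4 (4.33%). It became 7 with the length offset (7.99%), with only the groups compared (21.4%) and without both libraries that stand apart (19.1%). With 1 library left out it ran from 2 to 6 (1.90% to 8.45%). For CGRP in deprived medium the count of 0 (13.0%) became 2 with the length offset (18.8%) and 5 without both libraries (28.7%). It ran from 0 to 1 with 1 library left out (6.92% to 14.7%). For CGRP in 2-DG medium the count ran from 6 to 8 (4.28% to 28.4%). For 2-DG against high glucose the count of 2 (13.8%) became 4 with the replicate block (14.2%), 5 with the length offset (21.5%) and 7 without both libraries (32.5%). It ran from 2 to 5 with 1 left out (8.59% to 23.1%). For the effect of CGRP in deprived minus high-glucose medium the count was 2 (1.55%). It became 0 with no filter (0.446%), 1 with only the groups compared (0.919%) and 7 without both (13.5%). With 1 left out it ran from 0 to 4 (0.873% to 3.14%). For 2-DG minus high-glucose medium the count was 0 (0.391%). It became 3 with the length offset (1.55%), 1 with only the groups compared (0.808%), 6 without both (5.91%) and 2 with DESeq2 (1.26%). With 1 left out it ran from 0 to 3 (0.0701% to 1.75%). The causes were not tested.

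The replicate numbers did not pair the libraries, since correlations of same-numbered deviations ran from -0.154 to 0.0536. The block moved no other count of carriers by over 1.5 times.

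Sign changes concerned carriers that did not pass in either fit, with 1 exception. SLC7A1 in deprived minus high-glucose medium was 0.012 with total-count scaling, 0.0041 with the stricter filter, 0.045 with the length offset and 0.19 without both libraries (adjusted p = 0.019, the exception), and ran from -0.15 to 0.19 with 1 left out. In 2-DG minus high-glucose medium it was 0.0039 with RLE, 0.031 with total-count scaling, 0.00084 with the stricter filter, 0.0082 with the replicate block and 0.0039 with DESeq2, and ran from -0.13 to 0.078. SLC38A2 there was -0.0064 without both libraries and ran from -0.0064 to 0.17. For 2-DG against high glucose, SLC43A1 was -0.0045 with RLE, -0.053 with total-count scaling, -0.015 with the stricter filter, -0.013 with the length offset, -0.0058 with only the groups compared, -0.049 without both libraries and -0.0049 with DESeq2, and ran from -0.055 to 0.085. SLC7A1 was -0.024 with total-count scaling and ran from -0.051 to 0.14, and SLC7A5 was 0.042 without both and ran from -0.044 to 0.042. SLC38A1 with CGRP in deprived medium was 0.024 without both and ran from -0.27 to 0.024, and SLC38A2 with CGRP in 2-DG medium was -0.071 without both and ran from -0.071 to 0.10.

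Among all genes, the share called with CGRP ran from 1.30% with no filter to 21.4% with only the groups compared in high-glucose medium (4.33% as reported). In deprived medium it ran from 0.847% with only the groups compared to 28.7% without both libraries (13.0%), and in 2-DG medium from 4.28% with no filter to 28.4% without both (12.2%). With no filter it was 29.2% for deprivation (60.6%), 4.65% for 2-DG (13.8%), 27.3% for 2-DG against deprived cells (57.5%), 0.446% for deprived minus high glucose (1.55%) and 0.0822% for 2-DG minus high glucose (0.391%). Without both it was 32.5% for 2-DG, and 13.5% and 5.91% for those differences. Scaling by total counts left 38.0% of calls with deprivation as rises (51.2% as reported), 38.1% with 2-DG (57.7%), 66.2% with CGRP in deprived (49.2%) and 57.0% in 2-DG medium (43.5%), and 70.5% (58.2%) and 44.4% (31.0%) for the differences of deprived and of 2-DG minus high-glucose medium. The stricter filter gave 59.3% with CGRP in deprived medium.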
